A study of Mus musculus with 45 samples.

Results

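The immediate early genes followed here are Fos, Fosb, Jun, Junb, Egr1, Ier2, Atf3, Arc, Npas4 and Myc, 10 named genes of the 53491 that the tables list. They were taken by name and by no cut-off on a measured value, though with earlier results of these data known. Their RNA was measured by SLAM-seq, in which 4-thiouridine (4sU) built into new RNA is alkylated and then read as C where the genome has T. Primary cells came from the cortex of WT mouse embryos of embryonic day E11.5, E14.5 or E16.5, with 3 replicate pools (A, B and C) at each stage. A pool held 7 embryos at E11.5 and 2 at each later stage. Its cells were divided over 5 wells, attached for 2 h in progenitor medium with 10 ng/ml bFGF, and were exposed to 100 uM 4sU for 20 h. Uridine was then added to 5 mM, and one well was lysed at 0, 2, 4, 8 and 12 h of this chase, which gave 45 libraries in 15 groups of 3. All groups carried the label, and no unlabelled well was used here. Fresh medium with 4sU had last been given 1 h before the chase, so time in uridine and time since that change of medium cannot be told apart. The trypsin digestion lasted 5, 10 and 20 min in the order of stages, so its length and the stage cannot be told apart either.

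Immediate early genes are transcribed within minutes of a stimulus by factors that are already present in the cell, without new protein synthesis. Their RNAs and proteins are in most cases short-lived, so that a response is brief. In neurons they follow synaptic activity and calcium entry, and in dividing cells they follow growth factors such as the FGF in this medium. Fos and Fosb encode FOS subunits and Jun and Junb encode JUN subunits of AP-1, a transcription factor that binds DNA as a dimer. Atf3 encodes a related stress-induced factor that pairs with JUN proteins. Egr1 encodes a zinc finger factor, Ier2 a small nuclear protein and Myc a growth regulator that pairs with MAX. Npas4 encodes a factor induced by neuronal activity, and Arc encodes a protein of the postsynaptic cytoskeleton that takes part in the removal of AMPA receptors from the synapse.

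A well known feature of such RNAs is the AU-rich element of the 3' untranslated region (UTR), whose core is ATTTA. Stretches of 30 bases around an ATTTA are shown because the half-lives given later in the text can be read beside them, for members that hold this core and members that do not. Each line gives the stretch with most matches of one member, 5' to 3' on the strand of the gene in GRCm38, which is the build of mm10, with ATTTA in capitals. Egr1 holds the core too, and its stretch is not shown.
Fos, chr12:85477100-85477129, + strand: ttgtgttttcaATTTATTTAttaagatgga
Fosb, chr7:19303326-19303355, - strand: cccacccccagctATTTAtccctttcctgg
Jun, chr4:95049207-95049236, - strand: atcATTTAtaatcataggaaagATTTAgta
Junb, chr8:84977127-84977156, - strand: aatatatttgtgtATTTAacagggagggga
Atf3, chr1:191171242-191171271, - strand: caccaattccaggATTTAggccttatcatc
Npas4, chr19:4984916-4984945, - strand: caggccctgaaggATTTAggggggaggtgg
Myc, chr15:61990134-61990163, + strand: ttaacagatttgtATTTAattgttttttta

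In the 3' UTR of the longest coding isoform, all overlapping matches counted, Fos and Jun held 4 ATTTA each. Atf3 held 3, Junb, Egr1 and Myc held 2 each, and Fosb and Npas4 held 1 each. Ier2 and Arc held 0. Thus 8 of 10 members had at least 1, against 68.8% of 11867 genes with a 3' UTR and a mean of at least 1 cpm, the reads of a gene scaled to one common total per library. Per length Fos had the most among members, with 4.91 matches per kb against a median of 1.31 over those genes, and 7 of 10 members lay above that median. The longer form TATTTAT, which contains ATTTA, was found in Fos (2), Fosb, Jun and Atf3 (1 each), so in 4 of 10 members, against 29.8% of the genes. The same search in promoters, from 250 bases before to 50 after the gene start, could use the RefSeq windows of 6 members (Atf3, Fos, Fosb, Jun, Junb and Npas4). The short form of the cAMP response element, searched on both strands, was in 5 of the 6, with 2 matches each in Fos and Npas4 and 0 in Jun, while 20.8% of 32851 windows held it. The palindromic form of the element, which contains the short form, and the CArG box of the serum response element had 0 matches in the 6 windows and were found in 1.79% and 1.63% of all windows. These matches are a description of letters in these windows.

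The libraries held 228.7 to 629.1 M covered Ts, that is T positions under aligned reads, or 15.9 to 43.9 M reads. The nuclear RNA gene Gm42418 took 29686 to 67623 cpm in the 3 libraries of E11.5 at 12 h and 1485 to 20506 in the other 42, and the number of members called was the same in each comparison without it in the library sizes. Reads were summed over exons. On the opposite strand the antisense gene Junos overlaps Jun and Prdx2 overlaps Junb. The library kit keeps the strand, but whether counting used it is not stated, so that the reads of these pairs may be mixed. Markers of neurons and radial glia were present at each stage. At 0 h the summed level of 5 neuron markers had a mean of 2694, 5390 and 7173 cpm in the order of stages, and that of 6 radial glia markers 9835, 3801 and 1366. Markers of other cells moved with the stage as well. The sum of 5 erythroid markers was 1507 to 3270 cpm at E11.5 and 81.1 to 193 later, and that of 5 fibroblast markers 427 to 659 and 10.4 to 25.9. The sum of 3 mural cell markers was 34.9 to 45.3 and then 4.94 to 7.58, with Kcnj8 at 0 reads in the 3 libraries of E14.5. The sum of 3 astroglia markers was 9.70 to 15.8, then 18.9 to 21.9 and then 43.8 to 54.5, and 2 of the 3 were called higher at E16.5 than at E11.5. The sum of 3 intermediate progenitor markers was 172 to 180, then 158 to 166 and then 69.6 to 82.5, and 2 of the 3 were called lower at the last step. The sums of 7 microglia markers overlapped between stages, at 7.12 to 15.1. The part of these cells in the stage differences of the members was not tested. In such bulk samples fewer cells of a type and less RNA per cell cannot be told apart.

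At the start of the chase 5 of the 10 genes were higher at E16.5 than at E11.5, namely Fos, Fosb, Junb, Egr1 and Npas4, while Jun, Ier2 and Myc were called in no pair of stages. Arc and Atf3 were highest at E14.5. A gene was called at an adjusted p under 0.05 in edgeR with a change over 2-fold, and all 10 members could be tested at 0 h. The calls were 5 of 10 for E16.5 against E11.5, where 29.3% of 18408 genes were called, 4 of 10 for E14.5 against E11.5 (16.1% of genes) and 5 of 10 for E16.5 against E14.5 (13.1%). The replicates of the 2 stages did not overlap in any of these 14 calls, which rest on the same values, so this is no further test. The share of all genes whose replicates lay apart is not given. On the adjusted p alone the counts were 5, 7 and 8 of 10, against 64.4%, 48.6% and 49.5% of all genes.

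**Figure D1:**
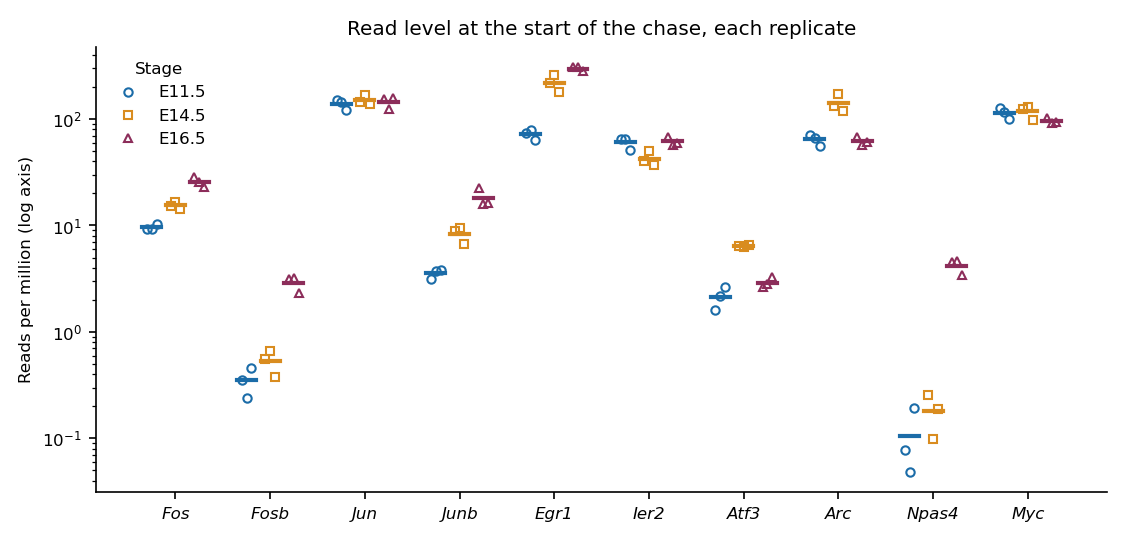
Read level of the 10 genes at 0 h of the chase in cpm, on a log axis, with one point for each replicate and a bar for the mean of 3, by stage. Npas4 and Fosb sit below 1 cpm at E11.5 and E14.5 and between 2.32 and 4.60 at E16.5, whereas Jun stays between 120 and 168 in all 9 libraries.

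Among the AP-1 genes Fos had 9.31, 9.33 and 10.4 cpm in replicates A, B and C at E11.5. The next stage had 15.3, 16.6 and 14.4, and the last had 28.3, 25.4 and 22.9. The 3 stages did not overlap and rose in order, with a 2.74-fold difference between E11.5 and E16.5 (log2 1.46, SE 0.11, adjusted p = 6.1e-08). Each single step, of 0.75 and 0.71 on the log2 scale, passed the adjusted p (5.9e-05 and 9.8e-05) and not the fold limit. Fosb stood at 0.352, 0.240 and 0.461 in E11.5 cells and at 0.552, 0.660 and 0.376 in E14.5 cells, and reached 3.16, 3.22 and 2.32 in E16.5 cells. The first 2 stages overlapped and E16.5 lay apart, 5.60-fold over E14.5 (log2 2.49, SE 0.28, adjusted p = 1.0e-05). Junb, which holds back JUN activity in many settings, had 3.13, 3.70 and 3.84 in the first stage, 8.89, 9.50 and 6.76 in the second and 22.3, 15.9 and 16.4 in the last. It rose at both steps, 2.39-fold (log2 1.26, SE 0.18, adjusted p = 8.4e-05) and 2.28-fold (log2 1.19, SE 0.18, adjusted p = 1.3e-04). Jun, in contrast, had 120 to 150, then 137 to 168 and then 124 to 159, which overlap, and its differences were at most 0.20 in size on the log2 scale.

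Atf3 was at 1.60, 2.16 and 2.61 cpm at E11.5 and at 6.47, 6.30 and 6.58 at E14.5. E16.5 cells had 2.66, 2.80 and 3.26. It thus peaked in the middle stage, 3.13-fold over E11.5 (log2 1.65, SE 0.20, adjusted p = 1.8e-05), and fell again by 1.18 on the log2 scale (SE 0.20, adjusted p = 2.8e-04). Arc was highest at E14.5 too, with 71.4, 66.4 and 56.2, then 132, 171 and 118 and then 67.1, 57.6 and 60.9. It was 2.25-fold higher at E14.5 than at E11.5 (log2 1.17, SE 0.13, adjusted p = 5.9e-06) and fell by 1.16 from E14.5 to E16.5 (SE 0.12, adjusted p = 7.7e-06). Without replicate B of E14.5, the highest of the 3, that fall was 0.9987 on the log2 scale and just missed the fold limit. E11.5 and E16.5 overlapped for Arc.

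Egr1 had 73.7, 78.4 and 63.1 cpm in E11.5 cells, 218, 259 and 179 in E14.5 cells and 306, 307 and 280 in E16.5 cells. Its main step was the first, 3.22-fold (log2 1.69, SE 0.11, adjusted p = 9.6e-08), and the second was 0.43 on the log2 scale (SE 0.11, adjusted p = 0.0068). Npas4 rested on 1 to 5 reads per library at E11.5 and 3 to 12 reads at E14.5. At E16.5 it had 120, 194 and 129 reads, or 4.57, 4.60 and 3.45 cpm, against 0.255, 0.0989 and 0.188 at E14.5. The fitted difference between E16.5 and E14.5 was 26.2-fold (log2 4.71, SE 0.49, adjusted p = 5.7e-06). Ier2 was lowest at E14.5, with 40.1, 49.6 and 37.0 against 65.6, 64.3 and 51.1 before and 67.5, 57.1 and 60.0 after that stage. Both differences, -0.42 and 0.51, passed the adjusted p (0.010 and 0.0029) but not the fold limit. Myc had 99.7 to 127, 97.9 to 131 and 92.6 to 103 in the order of stages, which overlap in each pair of successive stages.

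Per kb of exon, the scale on which genes can be set side by side, the means at 0 h spanned more than 3 orders of magnitude. Jun (43.4 cpm per kb), Myc (42.1) and Ier2 (39.7) were highest at E11.5, Arc followed with 21.2, Fos had 4.11, and Npas4 was lowest with 0.0257. At E16.5 Egr1 led with 66.4, ahead of Jun (45.8), Ier2 (40.4) and Myc (35.5). Fos stood at 10.9, Npas4 at 1.02 and Fosb at 0.465 on this scale.

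The next question was whether the level of these RNAs holds still during the chase. At E16.5 the level of all 10 was lower at 2 h than at 0 h, with a median log2 change of -0.48 against -0.0071 over all 18008 genes tested. Fosb alone among the members passed both limits, and 0.0888% of genes did. On the adjusted p alone 6 of 10 members fell, against 5.8% of genes in either direction. The 3 replicates of 0 h and 2 h did not overlap for any of the 6. This describes the same values and is no further test, and the share of all genes lying apart is not given. With the pool as a block the count was 9 of 10, all but Atf3, against 14.6% of genes. The fold limit gave the same members with the block as without it at each time and stage.

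**Figure D2:**
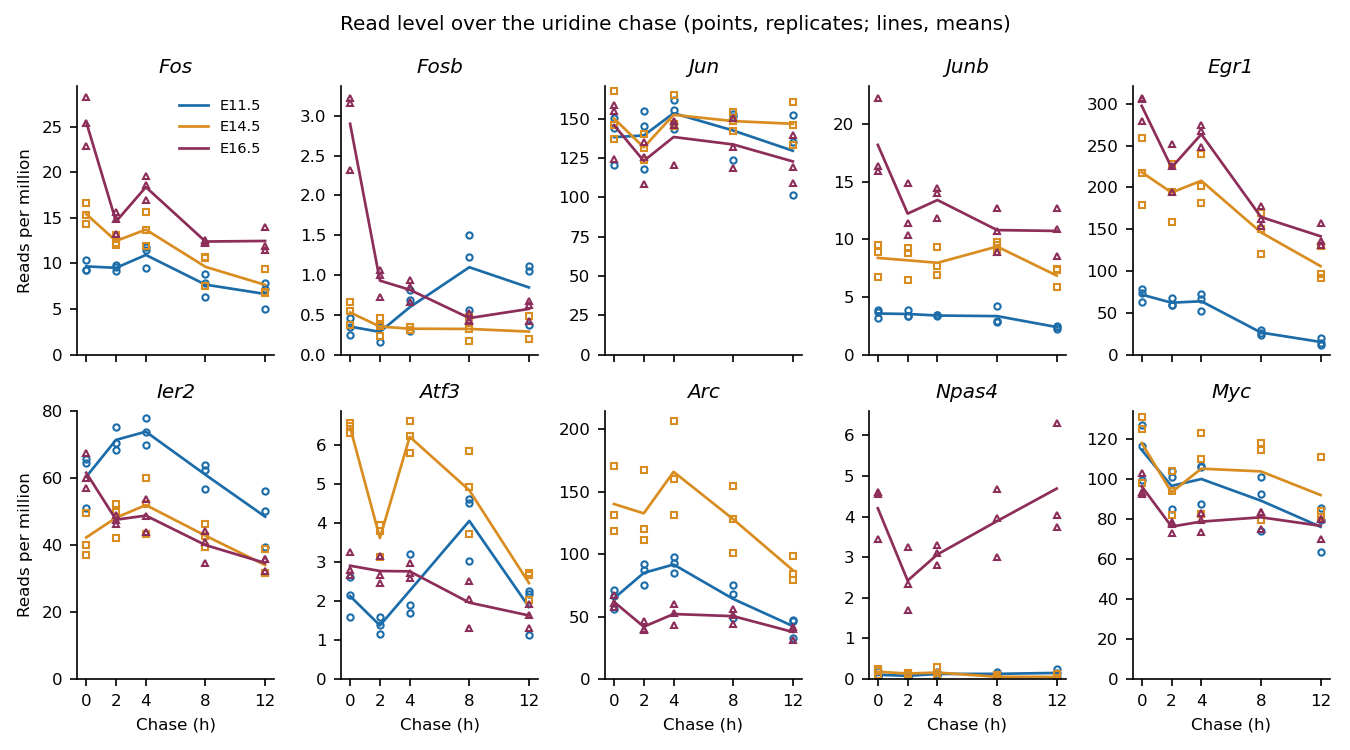
Read level in cpm (linear axes from 0) against hours of chase for each gene, with points for replicates and lines for the means of 3, by stage. Fosb at E16.5 drops from a mean of 2.90 to 0.929 at 2 h, and Egr1 declines at each stage between 4 h and 12 h.

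For Fosb at E16.5 the levels were 3.16, 3.22 and 2.32 cpm at 0 h and 1.06, 1.00 and 0.724 at 2 h. They were 0.659, 0.843 and 0.942 at 4 h, 0.423, 0.518 and 0.434 at 8 h and 0.623, 0.420 and 0.678 at 12 h. All 12 chase values lay below the 3 at the start, and the log2 changes were -1.69 (SE 0.24, adjusted p = 1.0e-03), -1.80 (0.24, 1.9e-04), -2.71 (0.25, 5.6e-06) and -2.16 (0.24, 1.5e-05) in order of time. Fos had 14.9, 15.7 and 13.2 at 2 h against 28.3, 25.4 and 22.9 before, a log2 change of -0.77 (SE 0.09, adjusted p = 3.3e-04). It then stood higher at 4 h, with 19.6, 18.6 and 17.0, than at 2 h and lower at 8 h, with 12.3, 12.6 and 12.4. At 8 h its change was -1.03 (SE 0.09, adjusted p = 4.8e-06), one of 2 members past the fold limit beside 1.55% of genes, with 6 of 10 past the adjusted p (19.4%), and at 12 h it was -1.00, just short of the limit. Without replicate A the change at 8 h was -0.93 and short of it too.

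Of the other members at E16.5, Arc changed by -0.57 over the first 2 h (SE 0.12, adjusted p = 0.013), from 67.1, 57.6 and 60.9 to 46.5, 39.9 and 39.5 cpm. Egr1 changed by -0.38 (adjusted p = 0.013), Ier2 by -0.37 (0.030) and Myc by -0.32 (0.014). Junb (-0.60), Npas4 (-0.80) and Jun (-0.24) passed with the block (adjusted p = 6.3e-04, 0.0097 and 5.0e-04) and not without it (0.063, 0.062 and 0.27). Atf3 was at 2.66, 2.80 and 3.26 before and 3.17, 2.67 and 2.47 after, with overlap. At 4 h Fosb alone was past the fold limit (0.633% of genes), and 4 of 10 passed the adjusted p (14% of genes). At 12 h the fold limit was passed by Fosb and Egr1 (-1.02, SE 0.08, adjusted p = 9.2e-07), with 3.03% of genes called, and 8 of 10 passed the adjusted p (26.2% of genes), the exceptions being Jun and Npas4. Without replicate B the Egr1 change was -0.98, and in one fit of all 45 libraries -0.998. Npas4 was at 3.74, 4.03 and 6.29 at 12 h, overlapping its start. Of 5 fibroblast markers 2 were called lower at 8 h and 2 at 12 h of this stage, with a median log2 change of -0.30 and -0.20, and of 4 tested erythroid markers 1 was called higher at 4 h and at 8 h and 1 in each direction at 12 h. Single markers of endothelium and intermediate progenitors (lower) and microglia (higher) were called at 12 h. The part of these cells in the changes of the members was not tested.

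**Figure D3:**
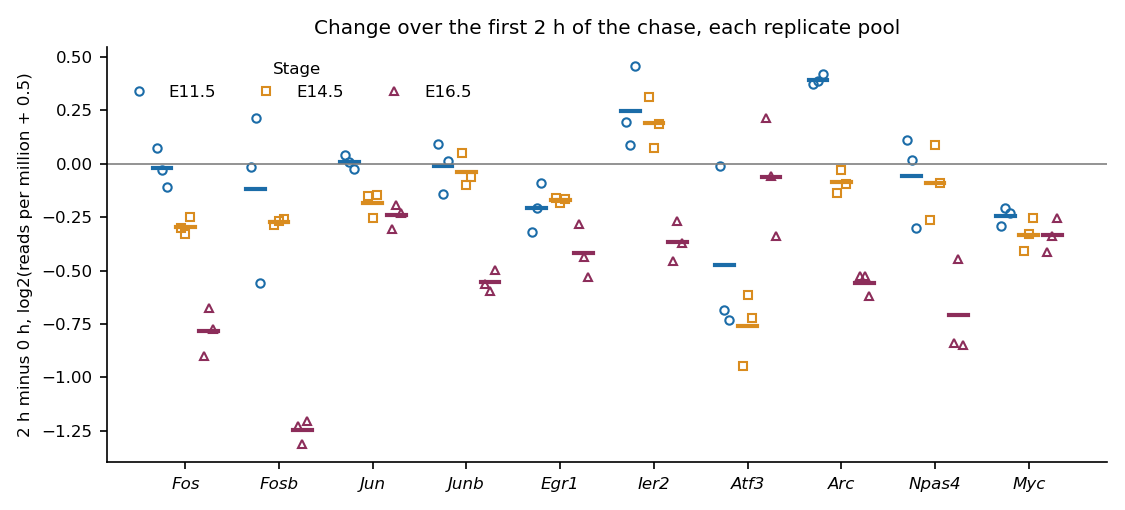
Change from 0 h to 2 h within each replicate pool, as the difference of log2(cpm + 0.5), with one point for each pool and a bar for the mean of 3, by stage. Arc is above 0 in all 3 pools of E11.5 (0.37 to 0.42) and below 0 in all 3 pools of E16.5 (-0.62 to -0.52).

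At E11.5 the early part of the chase looked otherwise. None of the 10 was called at 2 h (0.0279% of genes) or at 4 h (0.346%). By edgeR 2 members had an unadjusted p under 0.05 at 2 h, Ier2 and Arc, both upward, and the count over all genes at that p is not given. Arc had 92.6, 87.1 and 75.5 cpm at 2 h and 97.4, 92.8 and 85.1 at 4 h against 71.4, 66.4 and 56.2 at the start, and the replicates did not overlap. Its change to 4 h, 0.50 on the log2 scale (SE 0.14, adjusted p = 0.041), was the one that passed the adjusted p among the 10 members (6.24% of genes), and at 2 h 0 of 10 passed (1.33%). With the block Ier2 (0.28, adjusted p = 0.015), Arc (0.42, 0.0023) and Myc (-0.23, 0.032) passed at 2 h, beside 4.39% of genes, and the same 3 genes passed at 4 h, beside 2951 of 17904 genes.

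Later at E11.5 the marked change was that of Egr1. It had 26.1, 29.6 and 23.3 cpm at 8 h and 14.3, 19.5 and 11.49 at 12 h, all below the lowest value at the start, 63.1. The log2 changes were -1.43 (SE 0.16, adjusted p = 4.3e-05) and -2.07 (SE 0.16, adjusted p = 6.0e-07). Fosb was called upward at both times, by 1.68 (SE 0.49, adjusted p = 0.030) and 1.62 (SE 0.49, adjusted p = 0.024), on 19 to 27 reads per library at 8 h and 16 to 47 at 12 h against 5 to 12 at 0 h. At 12 h its values, 1.05, 1.11 and 0.367 cpm, overlapped the start, and the calls at both times were lost without replicate A (log2 1.71 and 1.57) and without replicate B (1.09 and 1.18), replicate C being the lowest at both times. On log2(cpm + 0.5) in limma they were lost too. These 2 genes were the calls at 8 h (1.74% of genes) and at 12 h (3.97%). On the adjusted p alone 2 of 10 passed at 8 h (14.1% of genes, and 5 of 10 with the block against 23.9%) and 5 of 10 at 12 h (23% of genes). Markers of other cells moved at this stage too. At 12 h 4 of 6 tested microglia markers were called lower (median log2 -1.35), their sum being 7.12 to 11.2 cpm at 0 h and 2.92 to 4.17 at 12 h, and 2 of 2 tested astroglia markers were called higher (median 1.05). Their part in the changes of the members was not tested. No marker of any list was called at 2 h of any stage.

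At E14.5 Npas4 was not tested, since 2 of the 15 libraries had 0 reads of it, and 9 members remained. None was called at 2 h (0.0501% of genes), 4 h (0.278%) or 8 h (0.713%). By edgeR the members with an unadjusted p under 0.05 numbered 1, 1 and 3, and the count over all genes at that p is not given. Atf3 fell at 2 h, from 6.47, 6.30 and 6.58 to 3.12, 3.94 and 3.79 cpm (log2 -0.76, SE 0.17, adjusted p = 0.040), and was back at 6.22, 6.61 and 5.80 at 4 h. It was the one member past the adjusted p at 2 h (1.38% of genes), and none passed at 4 h (6.61%), where with the block Ier2 did (0.28, adjusted p = 0.039; 19.6% of genes). Fos (-0.68) and Egr1 (-0.56) passed at 8 h (6.19% of genes). At 12 h the calls were Atf3, at 2.01, 2.71 and 2.66 cpm (log2 -1.36, SE 0.17, adjusted p = 1.1e-04), and Egr1, at 130, 91.1 and 96.6 against 218, 259 and 179 (log2 -1.02, SE 0.16, adjusted p = 5.8e-04), beside 2.28% of genes. Egr1 was short of the limit without replicate B, at -0.79. Fos (-0.97) and Arc (-0.67) passed the adjusted p at 12 h, which makes 4 of 9 (15% of genes). Of 5 erythroid markers 2 were called lower at 12 h (median -1.21), and their part in these changes was not tested.

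Whether the change over the first 2 h itself differed between stages was tested in one fit of the 45 libraries over 16559 genes, among them 9 members. Without the block no member was called in any of the 3 pairs of stages, and 0% of genes were, with 0.0181% past the adjusted p alone for E16.5 against E11.5. At an unadjusted p under 0.05 edgeR counted 0, 6 and 5 members for E14.5 against E11.5, E16.5 against E14.5 and E16.5 against E11.5, and 595, 423 and 642 genes in all. With the pool as a block and on the adjusted p alone, 3 members changed differently at E16.5 than at E11.5, and 0.29% of genes did. The differences were -0.98 for Arc (adjusted p = 4.6e-05), -0.79 for Fos (0.011) and -0.63 for Ier2 (0.0017) on the log2 scale. Ier2 also differed between E16.5 and E14.5, by -0.59 (adjusted p = 0.0039; 0.0966% of genes). Leaving out one pool at a time, Arc and Ier2 passed against E11.5 in 9 of 9 fits and Fos in 4 of 9, and Ier2 passed against E14.5 in 8 of 9. Between E14.5 and E11.5 0 of 9 members passed with the block (0.163%). Later in the chase, without the block, 1, 4 and 4 of 9 members changed differently at E16.5 than at E11.5 to 4, 8 and 12 h, beside 0.574%, 2.83% and 8.9% of genes, among them Fosb each time. For E14.5 against E11.5 the counts were 0, 3 and 3, beside 0.0302%, 2.11% and 6.07%. For E16.5 against E14.5 they were 0 at each of these times, beside 0%, 0.0966% and 0.906%. At an unadjusted p under 0.05 edgeR counted 1, 3 and 2 members for that pair, and the count over all genes is not given. With the pool as a block and on the adjusted p, the members numbered 2, 3 and 1 for E16.5 against E14.5, and 4 at 4 h for E16.5 against E11.5. The shares of genes given for these times are those without the block, so the counts with the block cannot be set beside them. Without the block and with one pool left out, the members counted for E16.5 against E11.5 ranged over 0 to 2 at 4 h, 1 to 4 at 8 h and 3 to 5 at 12 h. The 4 h count was 0 without E11.5 A or B or any pool of E16.5, and 2 without E14.5 C, while the 8 h count was 1 with any one of the first 5 left out. For E14.5 against E11.5 the 8 h count was 0 without E11.5 A, E14.5 A or E14.5 C and 1 without E11.5 B, and the 12 h count was 1 without E11.5 B.

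The label was read as the conversion rate, converted Ts over covered Ts, which also depends on how much 4sU the cells built in. It was compared for the 8 members with over 500 covered Ts at 0 h and 2 h in all 9 replicates, which leaves out Fosb and Npas4. At 0 h the means lay between 0.957% (Junb, E14.5) and 2.20% (Myc, E16.5), near the medians of 12454 genes, 1.19%, 1.12% and 1.84% in the order of stages. Fos had 1.28%, 0.790% and 1.61% in the replicates of E11.5, 1.02%, 1.47% and 0.998% in those of E14.5 and 2.04%, 2.39% and 2.14% in those of E16.5. The replicates of E16.5 lay above those of both other stages, and the median of all genes was highest there too. Relative to that median, in limma, Egr1 was higher at E16.5 than at E14.5 by 0.26 on the log2 scale (SE 0.07, adjusted p = 0.034), the 1 member of 8 called beside 17.2% of genes. For Atf3 the difference of E16.5 from E11.5 was -0.84 (SE 0.20, adjusted p = 0.024), again 1 of 8 beside 17.2%, and without centring on the median it was -0.19 and not called. Egr1 lost its call when any one of the 6 replicates was left out (0.22 to 0.29), and Atf3 lost it without replicate A (-0.76) or C (-0.73) of E11.5 and without B (-0.70) or C (-0.82) of E16.5. Between E14.5 and E11.5 limma called 0 of 8 members (0.169% of genes), and 1 had an unadjusted p under 0.05, as had 1580 of 12454 genes.

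Label left these RNAs early. After 2 h the rate of Fos was 31.8%, 55.9% and 27.6% of that at 0 h in the replicates of E11.5, 53.7%, 37.8% and 43.9% in those of E14.5 and 29.5%, 25.1% and 29.3% in those of E16.5. The median of the 12454 genes was 84.1%, 89.3% and 79.3%. Egr1 kept 40.7% ± 4.69 (SD, n = 3), 43.7% ± 1.81 and 27.2% ± 0.34 in the order of stages, and Arc 42.8% ± 0.83, 42.3% ± 2.55 and 27.1% ± 3.56. Jun kept 40.1%, 48.1% and 39.9%, Ier2 45.4%, 45.8% and 31.2%, and Myc 44.8%, 40.8% and 34.7%. For these 6 genes the mean percentile among the 12454 genes lay between 0.484 and 3.94 at each stage. Atf3 and Junb were less even, and Junb at E11.5, with 77 to 100 reads per library at 0 h, had 40.9%, 100.4% and 109.2% in its replicates.

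**Figure D4:**
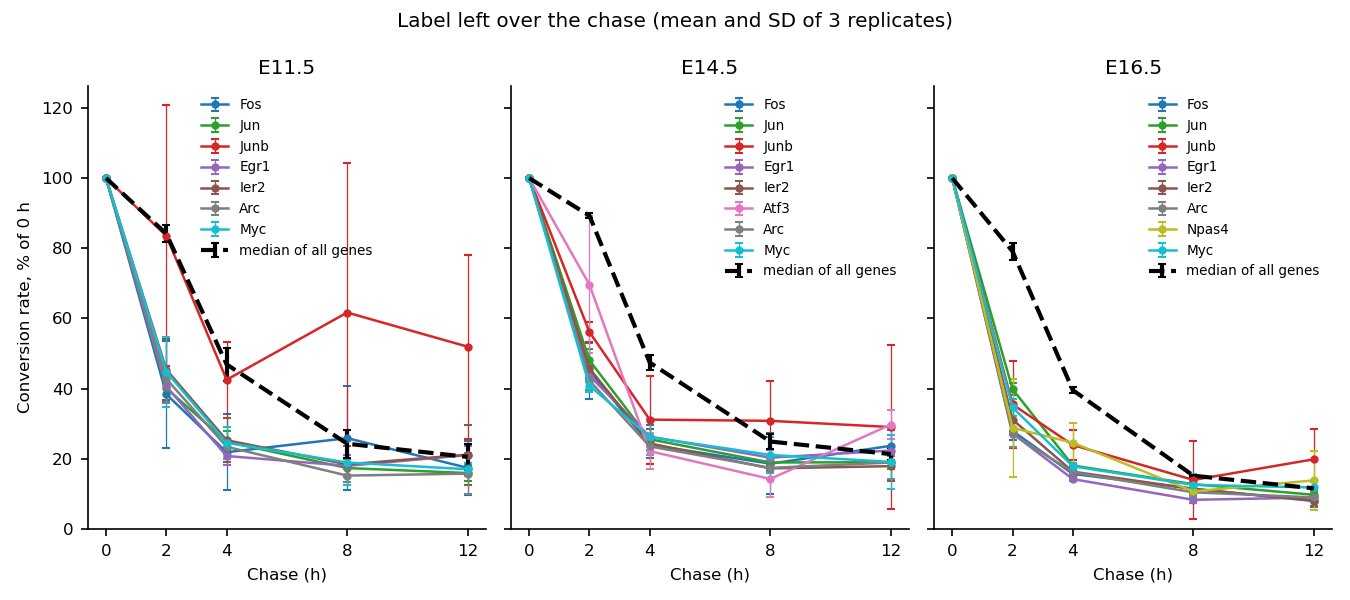
Conversion rate as a percentage of that at 0 h against hours of chase, one panel for each stage, as mean and SD of 3 replicates for the members with over 500 covered Ts at all times. The dashed line is the median of the 12668, 12592 and 12734 genes that met the same limit at each stage, which at 2 h is 84.1%, 89.3% and 79.1% of the start, while Fos is at 38.4%, 45.1% and 28.0%.

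None of 12454 genes, members included, was called by limma for a stage difference in the share of label left at 2 h, so that the background is 0% for each pair of stages. At an unadjusted p under 0.05 it counted 0 of 8 members for E14.5 against E11.5, 3 of 8 for E16.5 against E14.5 and 4 of 8 for E16.5 against E11.5. Over all 12454 genes it counted 1018, 1612 and 1995 in the same order. For the last pair Egr1 (-0.49, SE 0.09, adjusted p = 0.082) and Arc (-0.58, SE 0.11, adjusted p = 0.088) had the lowest adjusted p, and both passed when genes with over 2000 covered Ts alone were tested. By 12 h the members had 15.8% to 52.0%, 17.9% to 29.8% and 7.99% to 19.9% of their starting rate in the order of stages, and the median of the genes with over 500 covered Ts at all times had 20.6%, 21.4% and 11.6%. The rates of the members at 12 h were 0.142% to 0.697%, beside a background of 0.0668% to 0.0965% estimated from the least converted genes.

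Because levels moved while label was lost, the rate and the amount of labelled RNA were also set side by side. The labelled RNA left at 2 h, rate times level, was 37.9% and 36.6% of the start for Fos in the first 2 stages and 15.5% to 16.9% in the replicates of E16.5. For Arc it was 56.3%, 39.9% and 18.4%, and for the median gene 82.9%, 85.3% and 77.6%. The spread of replicates was narrow for Arc, from 55.9% to 57.0% in E11.5 cells and from 16.4% to 21.6% at E16.5, and the 3 stages did not overlap.

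Half-lives were fitted with a single exponential to the rate over all 5 times, and a value was kept with over 500 covered Ts at each time, R2 over 0.6 and under 24 h in all 3 replicates. This left 6, 7 and 8 members in the order of stages. Fosb had none at any stage, Npas4 had one at E16.5 alone, Atf3 at E14.5 alone and Junb at E16.5 alone. All lay in the shortest 10% of transcripts, with means of 1.85 to 2.29 h, 2.00 to 2.89 h and 1.19 to 1.80 h against medians of 4.43, 4.60 and 3.48 h over all transcripts.

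**Figure D5:**
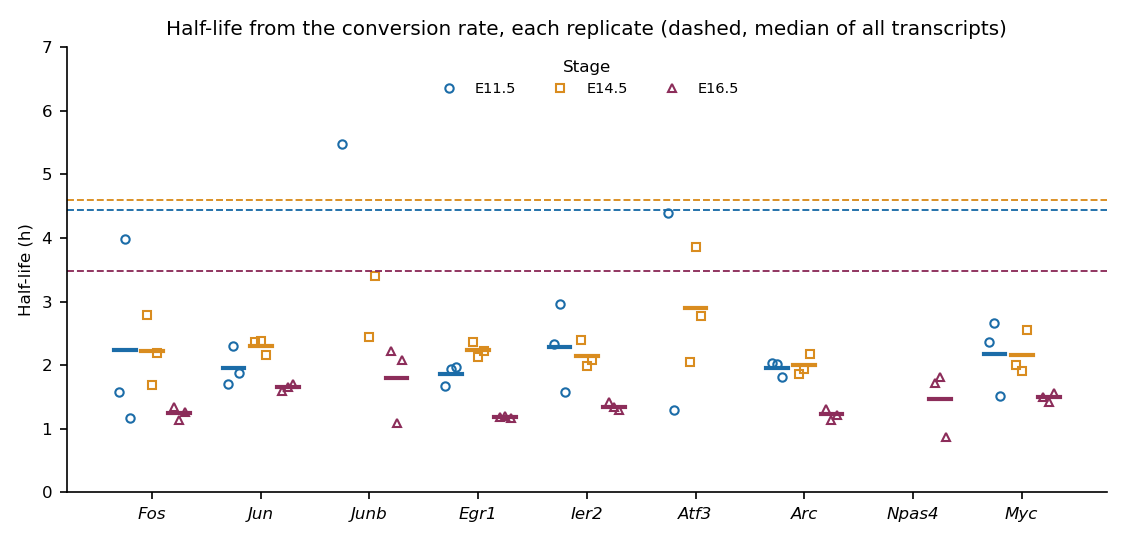
Half-life in hours of the members with a kept value, one point for each replicate that passed and a bar for the mean where all 3 did, by stage, with dashed lines at the stage medians of all transcripts (4.43, 4.60 and 3.48 h). The points of E16.5 lie below those of E14.5 for Fos, Jun, Egr1, Ier2, Arc and Myc.

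Fos had half-lives of 1.58, 3.98 and 1.17 h at E11.5, where replicate B, whose rate at 0 h was the lowest, stands apart. The replicates of E14.5 gave 2.80, 1.69 and 2.19 h, and those of E16.5 gave 1.34, 1.15 and 1.26 h. Egr1 had 1.67, 1.93 and 1.97 h, then 2.36, 2.13 and 2.22 h and then 1.19, 1.19 and 1.18 h, with a percentile of 0.076 among 11850 transcripts at E16.5. Arc had 2.03, 2.02 and 1.81 h, then 1.87, 1.94 and 2.18 h and then 1.32, 1.14 and 1.22 h. Arc and Ier2 are the members with no ATTTA in the 3' UTR, and Fos and Jun have 4 each. The means of Jun were 1.96, 2.30 and 1.65 h, those of Ier2 2.29, 2.15 and 1.35 h and those of Myc 2.18, 2.16 and 1.50 h. At E16.5 Junb had 1.80 h ± 0.62 and Npas4 1.47 h ± 0.52 (SD, n = 3), and Atf3 had 2.89 h ± 0.91 at E14.5.

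In all 6 genes with a value at each stage the 3 replicates of E16.5 lay below the 3 of E14.5 (exact permutation test, two-sided, p = 0.1, the smallest that 3 against 3 allows). E16.5 lay below E11.5 without overlap for Jun, Egr1, Ier2 and Arc (p = 0.1 in the exact test) and with overlap for Fos (p = 0.3) and Myc (p = 0.2). The share of all transcripts whose replicates lay apart in this way is not given. These counts are thus not shown to be particular to the members. The median half-life of all transcripts was shorter at E16.5 as well. After z-scoring within each replicate, which removes such a shift, limma called 0 of 6 members in each pair of stages, beside 0.2% of 9505 transcripts for E14.5 against E11.5, 0.884% for E16.5 against E14.5 and 4.7% for E16.5 against E11.5. Over any stage it was 0 of 6, beside 3.15%. At an unadjusted p under 0.05 it counted 0, 1 and 0 members in the 3 pairs, the one being Egr1 (-0.24 SD units, SE 0.10, adjusted p = 0.26). Over all 9505 transcripts it counted 1264, 1627 and 2097 in the same order.

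The fitted hours depend on the first interval. From 0 h and 2 h alone the means were 1.52 to 1.80 h, 1.55 to 5.91 h and 1.06 to 1.51 h in the order of stages. Without the 0 h point only 2, 1 and 6 members kept a value, and it lay at 4.95 to 5.44 h, 4.72 h and 3.11 to 4.60 h, above the medians of all transcripts in the same fit, which were 3.47, 3.31 and 2.57 h.

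As a description, the 5 genes whose level ran most like that of Fos over the 15 group means, by Pearson's r of log2(cpm + 0.5) among 14405 genes, were 2810454H06Rik (0.94), Egr3 (0.93), Gm11738 (0.93), 5730522E02Rik (0.93) and Rwdd3 (0.92). Over the 45 libraries their r was 0.80 to 0.87. Of the members Egr1 (0.84), Junb (0.81) and Npas4 (0.66) were the most alike, at ranks 164, 304 and 2217 of the 14405 genes. Jun, Ier2, Atf3, Arc and Myc had 0.25 or less. Fosb was under the level limit for this ranking. Groups of one stage share their pools. Egr3, a zinc finger factor related to Egr1, had means of 4.92, 4.99 and 13.8 cpm at 0 h in the order of stages, and 6.54 at 2 h of E16.5.

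Lists of related genes give the setting. Of the EGR and NR4A factors, which are themselves immediate early genes, 5 were tested at 0 h. Between E11.5 and E16.5 4 rose, Egr2 by 4.53 and Nr4a3 by 4.28 on the log2 scale, and 0 fell, with a median of 3.28 against -0.04 over all genes. At E16.5, 2 h against 0 h, 1 of 6 was called, Egr3 at -1.06, and the median of the list was -0.79. Of 11 tested effectors of neuronal activity 7 rose between E11.5 and E16.5, among them Inhba, a subunit of activin, by 5.32 and Gpr3, a receptor that raises cAMP, by 2.55, and 0 fell (median 1.16). At E16.5 none of 12 was called at 2 h. Of 11 partners of AP-1 and ATF 3 rose between E11.5 and E16.5, Fosl2 most with 3.34, and Batf3 fell by 1.37. None of 11 was called at 2 h of E16.5, with a median of -0.14.

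Among 19 regulators of immediate early transcription 3 rose from E11.5 to E16.5, Mef2c most with 4.74, and 1 fell, Elk3 by 2.34. Among 11 genes of the MYC network Mycn rose by 1.47 and Mxd4 by 1.08, and Mxd3 fell by 1.14, while Myc itself was not called. Of 50 other genes of the rapid primary response 11 rose, Arid5a (2.59) and Sgk1 (2.32) most, and 9 fell, Zfp36l1 by 2.62 and Gadd45a by 1.81, with a median of 0.27. None of these 3 lists had a call at 2 h of E16.5, where their medians were -0.05, -0.01 and -0.15. The directions of these counts can be read beside the 14.7% of genes that rose and the 14.6% that fell between E11.5 and E16.5, and the 0.0167% and 0.0722% at 2 h of E16.5. The E16.5 comparisons share the 0 h libraries of that stage.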

How the data were processed

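The labels name WT mouse primary cortical cells and a stage, chase time and replicate for each of 45 libraries, made with a stranded mRNA kit. The authors aligned reads with SlamDunk to mm10 and summed exons per gene; its settings are not given in the sources used here. Covered Ts were deposited as raw counts, conversion rates as a fraction, and levels by the authors in cpm (reads scaled to a common total). Converted Ts were recovered as the rate times the covered Ts, rounded to whole numbers. All cpm values were whole multiples of 1 read within 0.01 reads, so whole reads were recovered. The half-life and R2 (a score) columns deposited by the authors were used as a check alone: 99.99% of 117534 refits came within 1% of them. No column was left unassigned. The depth, 228.7 to 629.1 M covered Ts, limits Npas4, Fosb, Atf3 and Junb most.

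Levels were tested with edgeR 4.0.16 (quasi-likelihood F-test, TMM, more than 10 covered Ts in all libraries of a fit) on covered-T counts, with 15 libraries of a stage, 9 at 0 h or all 45. Each read adds several covered Ts, so recovered reads were an alternative. Label was tested with limma 3.58.1 on log2((converted + 0.5)/(covered + 1)), centred on the median of each replicate. Half-lives were fitted as exp(-kx) to rates over that at 0 h. P-values were adjusted by Benjamini-Hochberg over all genes of a comparison. The scripts were tested on simulated data. DESeq2 1.42.0 was an alternative, with other filters, normalizations, fits and each replicate left out. R 4.3.3, Python 3.11.15, numpy 2.4.6, pandas 2.3.3, scipy 1.17.1 and pysam 0.24.0 were used. Gene models came from GENCODE release 21 on GRCm38, which named 96.6% of the genes, and promoters from RefSeq.

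Wells of one letter within a stage come from one pool, so the letter was used as a block in an alternative. Deviations from the group means of the 0 h well and the later wells of a pool correlated at -0.064 to 0.736 at E11.5, 0.350 to 0.856 at E14.5 and 0.561 to 0.805 at E16.5. Letters of different stages are different embryos. The members, the lists and the tests were chosen with earlier results of these data known. All members were named, and from each list the called genes with the largest rise and fall, at most 2 each way.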

Additional observations from a re-analysis of the deposited data

Results flagged for a closer look

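Differences between stages in the change over the chase were tested over all 45 libraries, with and without the pool as a block. Members past an adjusted p of 0.05 in edgeR are listed here on the log2 scale. The change to 2 h is listed with the block, and without it no member passed at that time. The later times are listed without the block. With the block, 6 members passed at 8 h and 5 at 12 h for E16.5 against E11.5. Members that passed at the later times with the block alone are thus not listed. The 3 pairs of stages share libraries. The number of 9 fits, each without one pool, that kept the adjusted p stands in brackets.

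For E14.5 against E11.5 the change to 8 h differed by -2.15 for Fosb (adjusted p = 0.039; 2 of 9), 0.85 for Egr1 (0.025; 6 of 9) and -1.34 for Atf3 (0.031; 4 of 9), beside 2.11% of genes. The change to 12 h differed by -2.45 for Fosb (0.0063; 7 of 9), 1.02 for Egr1 (0.0019; 9 of 9) and -1.28 for Atf3 (0.020; 5 of 9), beside 6.07%. Egr1, the zinc finger factor, thus lost more of its level at E11.5.

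For E16.5 against E11.5 the change to 4 h differed by -2.76 for Fosb (0.020; 4 of 9), beside 0.574% of genes. The change to 8 h differed by -4.38 for Fosb (1.5e-05; 9 of 9), -0.65 for Fos (0.043; 3 of 9), -0.59 for Ier2 (0.032; 3 of 9) and -1.34 for Atf3 (0.025; 4 of 9), beside 2.83%. The change to 12 h differed by -3.78 for Fosb (3.4e-05; 9 of 9), -0.58 for Fos (0.040; 5 of 9), 1.05 for Egr1 (0.0012; 9 of 9) and -0.64 for Ier2 (0.0077; 9 of 9), beside 8.9%. Fosb at E11.5 rests on 5 to 47 reads per library.

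With the pool as a block the change to 2 h differed by -0.98 for Arc (4.6e-05; 9 of 9), -0.79 for Fos (0.011; 4 of 9) and -0.63 for Ier2 (0.0017; 9 of 9) between E16.5 and E11.5, and by -0.59 for Ier2 (0.0039; 8 of 9) between E16.5 and E14.5.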

How the results depend on the processing

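Of 3822 single values of members under other settings, 3671 kept their side of the threshold or, without a test, moved by no more than the spread of replicates. The sign changed in 103 of these, which were called neither in the reported test nor under the other setting. Of the rest 25 lost a call, 67 gained one and 4 reversed, and 55 values without a test moved by more than that spread. The cause was not tested.

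On the adjusted p alone the members called over the chase were 1 at 4 h and 5 at 12 h of E11.5, 1, 2 and 4 at 2, 8 and 12 h of E14.5, and 6, 4, 6 and 8 at the 4 times of E16.5. At 0 h they were 7 for E14.5 against E11.5 and 8 for E16.5 against E14.5. With more than 500 covered Ts in all libraries of a fit, 7 members were tested at E11.5 and 8 at E16.5 and between stages; on recovered reads, with more than 10 reads in all libraries, it was 8, 9 and 8. Each of these settings gave 1 and 1 at 8 h and 12 h of E11.5, 0, 0 and 1 at 2, 4 and 8 h of E16.5, and 3 and 3 for E16.5 against E14.5 and E11.5 at 0 h. Limma on log2(cpm + 0.5) gave 1 and 1 at 8 h and 12 h of E11.5, and one fit of 45 libraries gave 1 at 12 h of E16.5. DESeq2 gave no adjusted p for Fosb at 2 h of E16.5.

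Without centring, the rate at 0 h was called for 7 and 6 members for E16.5 against E14.5 and E11.5, and Jun (0.57), Ier2 (0.65) and Arc (0.62) reversed in the first pair and Jun (0.52) in the second. An adjusted p under 0.01 left 0 and 0, and over 2000 covered Ts left 0 in the second pair. For label left at 2 h, no centring gave 2 and 2, over 2000 covered Ts gave 2 and labelled RNA gave 1 for E16.5 against E11.5. Half-lives in unscaled hours gave 2 for E16.5 against E14.5 (Egr1 -1.05, Arc -0.77) and 1 over any stage. The fit without 0 h left 2 and 1 members with a half-life at E11.5 and E14.5, and R2 over 0.8 left 4 at E14.5. The share of all genes called is not given for the settings in this paragraph. A shift of all genes stays in the tests without centring or scaling, and the median rate of all genes at 0 h was highest at E16.5.

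With the replicate block the members past the adjusted p were 3, 3 and 5 at 2, 4 and 8 h of E11.5 and 1 at 4 h of E14.5. For the change between E16.5 and E14.5 they were 1, 2, 3 and 1 at the 4 times, and between E16.5 and E11.5 3 at 2 h and 4 at 4 h. The share of all genes with the block is not given for the changes to 4 h and later, so those counts cannot be set beside it. The pairing changed no call under the fold limit over the chase.

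With one replicate left out, the members called ranged over 0 to 1, 1 to 3 and 1 to 2 at 4, 8 and 12 h of E11.5, 1 to 3 at 12 h of E14.5, and 1 to 2 and 2 to 3 at 8 h and 12 h of E16.5. At 0 h they were 4 to 6 for E14.5 against E11.5 and 4 to 5 for E16.5 against E14.5. For the rate at 0 h they were 0 to 2 and 0 to 1. Members with a half-life were 6 to 7 at E11.5 and 7 to 8 at E14.5. For the change between stages they were 0 to 2, 1 to 4 and 3 to 5 at 4, 8 and 12 h for E16.5 against E11.5, 0 to 3 and 1 to 4 at 8 h and 12 h for E14.5 against E11.5, and 0 to 1 at 8 h for E16.5 against E14.5. Depth limits Npas4 and Fosb most, with a median of 5 and 16 reads per library.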
